A study of Homo sapiens with 6 samples.

Results

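The genes described here encode subunits of RNA polymerases I, II and III, subunits of the Mediator complex, and TATA-binding protein (TBP) associated factors (TAFs). Members were taken by name and type: protein-coding genes whose symbols begin with POLR1, POLR2 or POLR3 and a letter, or with MED or TAF and a number, and whose mean count over the 6 libraries was at least 10. This gave 84 of the 28491 genes in the deposited count table, with 8 named for polymerase I, 14 for polymerase II, 10 for polymerase III, 30 for Mediator and 22 TAFs. Of 87 protein-coding matches, 3 lay under the minimum count: POLR2J2, another POLR2J3 entry and TAF7L, with mean counts of 4.83, 6.5 and 3.17. All 84 members passed edgeR's filter on low counts, as did 16260 genes in all. Symbols name a family although some subunits serve several enzymes: POLR1C and POLR1D belong to polymerases I and III, and POLR2E, POLR2F, POLR2H, POLR2K and POLR2L belong to all the nuclear polymerases.

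HCT116, a human colorectal carcinoma cell line, was transfected with a control plasmid (NC, 3 libraries) or, for RBM47 overexpression, with a plasmid that encodes RBM47 (RBM47-OE, 3 libraries), and poly(A) RNA was sequenced after 48 h. The sample labels name pcDNA3.1-3xFlag-RBM47 and DMEM, whereas the study's methods name pIRES-hrGFP-1a and McCoy's 5A medium. RBM47 is an RNA-binding protein, and the comparison asks which transcripts change when it is in excess. The labels do not say that the 3 libraries of a group came from separate cultures, so p-values measure the spread between these libraries.

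RNA polymerase I makes the large ribosomal RNA precursor, polymerase II makes messenger RNA and many noncoding RNAs, and polymerase III makes transfer RNA and other small RNAs. Each enzyme has a catalytic core of a pair of large subunits and a set of smaller ones, part of them shared. Mediator passes signals from DNA-bound activators to polymerase II, and TAFs join TBP in TFIID at polymerase II promoters or in SL1 at the ribosomal RNA promoter, while some serve in the acetyltransferase complex SAGA. These are genes that dividing cells use throughout, and tumour cells with high ribosome production use polymerases I and III heavily.

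The promoters of these genes were searched for short sequences, among them CCGGAAG, which lies within the recognition sequences of ETS-family factors. RefSeq promoter windows (GRCh38.p14, 300 bases, from 250 before the start to 50 after it) were matched for 64 of the 84 members. CCGGAAG on either strand occurred in 23 of the 64 windows (35.9%), compared with 10.3% of all 35116 windows and 19.0% of the 10426 windows of protein-coding genes tested. Among members with a higher level in RBM47-OE it was found in 5 of 12 windows (41.7%). It was found in 6 of 23 (26.1%) among those with a lower level and in 12 of 29 (41.4%) among the rest. With so few windows, no link to the direction of change is read from these shares. The TATA letters TATAAA occurred in 4 of 64 members (6.25%), against 11.5% of all windows and 5.32% of windows of protein-coding genes tested. CCAAT occurred in 35.9% of members, 34.6% of all windows and 36.6% of those of protein-coding genes tested. GGGCGG occurred in 60.9% of members and 45.0% of all windows, but in 71.2% of windows of protein-coding genes tested. The windows of 30 bases below are shown for members whose values are described later, and capitals mark the letters searched for. A match is a description of the sequence, and no binding was measured.
MED18: tcggcttccgaCCGGAAGtgagaagaggag
POLR2F: tgtcctgcctcCCGGAAGtgatttcctctg
TAF13: cccgcgcgtcaCCGGAAGtgaggcggcgga
TAF1D: tcgccttcttcCCGGAAGctaagttgtatc
POLR2M: gaatactttttgTATAAAccgacgaacagc
The MED18 window is chr1:28329008-28329037 on the plus strand, and that of POLR2F is chr22:37953647-37953676 on the plus strand. The TAF13 window is chr1:109076007-109076036 and the TAF1D window chr11:93741542-93741571, both on the minus strand. The POLR2M window is chr15:57706517-57706546 on the plus strand, with TATAAA 185 bases before the start.

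Between 26792409 and 35477983 counts fell on genes per library. RBM47 stood at 1.91 to 2.33 FPKM (fragments scaled by gene length and library total) in NC and at 127.0 to 131.3 FPKM in RBM47-OE, where plasmid and cellular transcripts are counted together. The summed level of 7 epithelial markers was 960.5 to 1040.2 FPKM in NC and 832.6 to 926.4 FPKM in RBM47-OE, although VIL1 and LGALS4 were under 1 FPKM in every library. KRT8 and KRT18 made up most of that sum, while EPCAM stood at 75.2 to 78.3 FPKM in NC and 87.6 to 104.2 FPKM in RBM47-OE, and CDH1 at 12.9 to 13.5 and 14.5 to 14.9 FPKM. Leukocyte markers summed to at most 0.44 FPKM, endothelial markers to at most 0.16 FPKM and the fibroblast list, of which COL1A1 alone had an entry, to at most 1.72 FPKM. In bulk RNA, fewer cells of a type and less RNA per cell cannot be told apart. RBM47-OE replicate 1 lay closest to NC: in the decile of genes with the lowest exonic GC content, the median log2 difference from NC was 0.20 there, 0.43 in replicate 2 and 0.47 in replicate 3. In the highest decile it was -0.12, -0.27 and -0.31. Another fit with an offset for each library's trend with GC content is therefore given beside the results it changes.

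Of the 84 members, 28 fell and 16 rose in RBM47-OE at an adjusted p under 0.05 (edgeR quasi-likelihood test, Benjamini-Hochberg over all genes tested). Together this was 52.4% of members, whereas 35.9% of all genes tested were called, 19.1% of them higher and 16.9% lower, and 42.0% of protein-coding genes tested were called (22.6% higher and 19.4% lower). The median log2 fold change of members was -0.08, against 0.00 for all genes tested. Without regard to sign, the median was 0.21 for members, 0.24 for all genes tested and 0.23 for protein-coding genes tested. The larger share called thus did not come with larger changes. Median FPKM in NC was 7.34 for members, 2.83 for all genes tested and 3.955 for protein-coding genes tested. Changes were small: members called higher had folds of 1.15 to 1.58, and members called lower stood at 0.613 to 0.871 of their NC level. By the thresholds of the study (fold change over 1.5 and an unadjusted p under 0.01), POLR2M was higher and POLR1G and POLR2L were lower, 3 of 84 members, where 2.38% of all genes tested passed (1.51% higher and 0.873% lower). The 5 families differed in their counts. Polymerase I had 6 members lower and 1 higher, polymerase II 9 lower and 2 higher, polymerase III 3 lower and 2 higher, Mediator 7 lower and 6 higher, and the TAFs 3 lower and 5 higher. Median log2 fold changes were -0.24 for polymerase I, -0.22 for polymerase II, -0.10 for polymerase III, -0.08 for Mediator and 0.09 for the TAFs. With the GC offset, 22 members were lower and 1 higher, where 14.6% of all genes tested were called (8.54% lower and 6.1% higher), and the family medians were -0.32, -0.17, -0.04, -0.11 and -0.06. Of the 44 calls, 17 were also made with the offset, POLR2M among the 16 higher ones. The number of members called lower was 15 when NC replicate 2 was left out and 18 when RBM47-OE replicate 2 was.

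**Figure D1:**
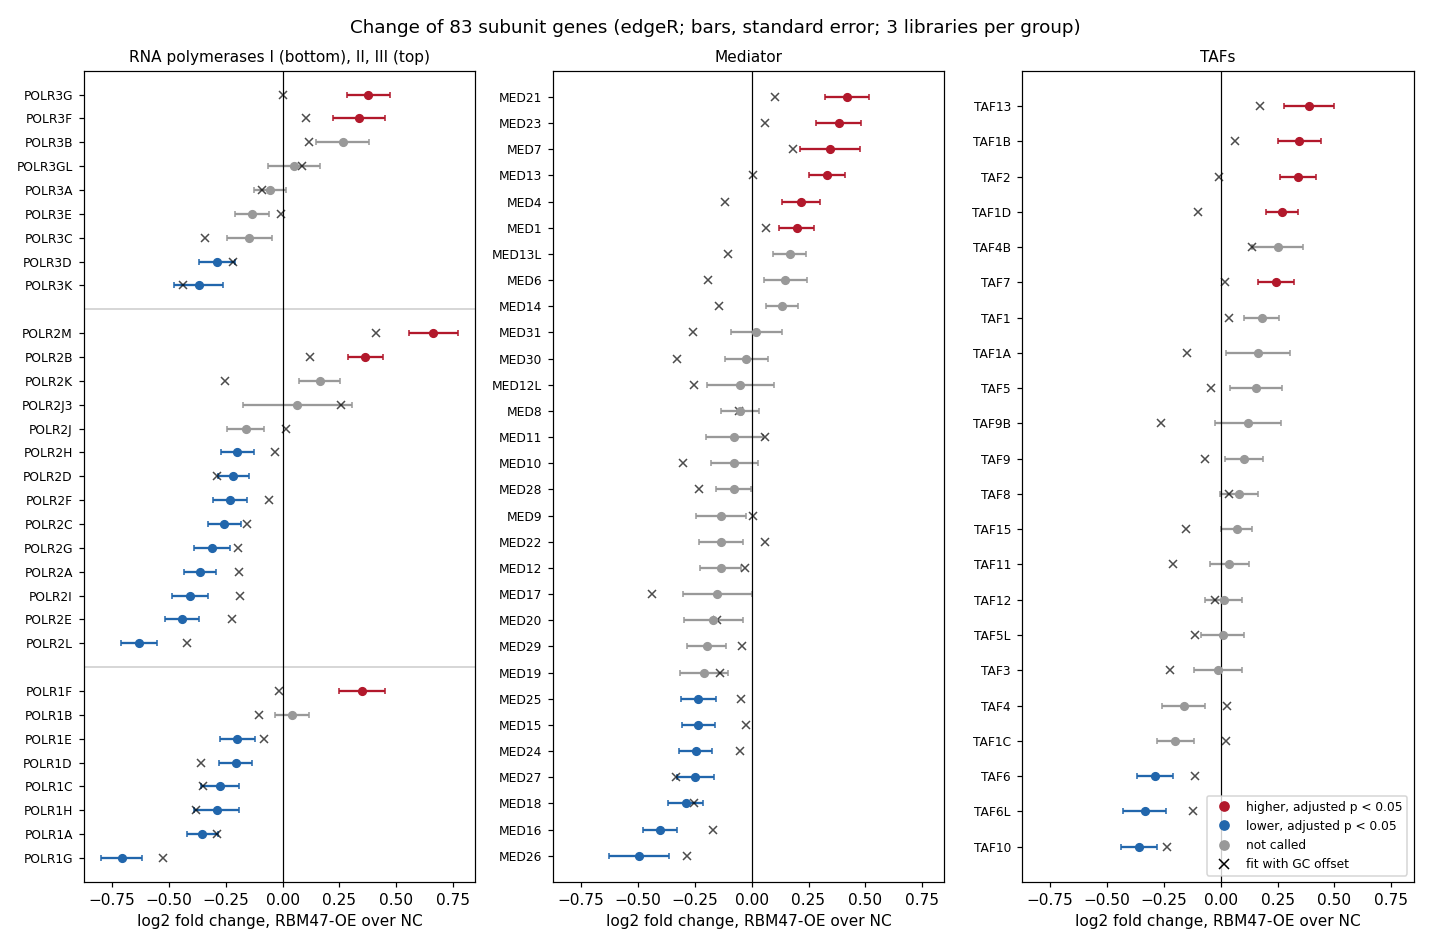
Log2 fold change of 83 of the 84 members, RBM47-OE against NC, by family, with bars of 1 standard error, colours for the edgeR call and crosses for the fit with the GC offset. Polymerase I and II members lie mostly below 0 (medians -0.24 and -0.22), the TAFs on both sides (median 0.09), and POLR2M is the highest member at 0.66.

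Polymerase I subunits were mostly lower in RBM47-OE, with POLR1G the most strongly reduced of all members. POLR1G, which forms a dimer with POLR1E at the periphery of the enzyme, lies on the plus strand of chromosome 19 (45406644 to 45410737, GRCh38 and GENCODE 44, as for all genes placed here). Its level was 10.9, 12.1 and 10.8 FPKM in NC replicates 1, 2 and 3, and 7.02, 6.71 and 8.06 FPKM in RBM47-OE replicates 1, 2 and 3. The groups did not overlap, and the log2 fold change was -0.71 (SE 0.090, adjusted p = 1.5e-05), or -0.53 with the GC offset. POLR1G shares 49.8% of its exonic bases with ERCC1, a repair gene on the opposite strand, which had a log2 fold change of -0.21 (adjusted p = 0.030). Whether strand was used in counting is not given in the sources used here, so reads of such a pair cannot be told apart.

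POLR1A, the largest catalytic subunit of polymerase I, on the minus strand of chromosome 2 (86020216 to 86106155), fell from 4.84 ± 0.118 to 3.99 ± 0.204 FPKM (mean ± SD, n = 3 each). Its log2 fold change was -0.35 (SE 0.069, adjusted p = 0.00042), and it was -0.29 with the GC offset. Its partner in the active site, POLR1B, stood at 5.23, 5.69 and 5.2 FPKM in NC and at 5.39, 6.08 and 5.98 FPKM in RBM47-OE. The groups overlapped for POLR1B, with a log2 fold change of 0.04 (adjusted p = 0.71). POLR1C and POLR1D, which polymerases I and III share, fell by 0.28 and 0.21 on the log2 scale, and the offset gave -0.35 and -0.36. POLR1H, the small zinc-ribbon subunit that acts in RNA cleavage, fell by 0.29 on the log2 scale and POLR1E by 0.20, the latter not called with the offset (-0.08). POLR1F, a stalk subunit, was the member of the family that rose: 5.34, 5.51 and 5.32 FPKM in NC became 5.91, 7.25 and 8.54 FPKM in RBM47-OE. The RBM47-OE libraries all lay above NC but were far from each other, and the log2 fold change of 0.35 (adjusted p = 0.0090) became -0.02 with the GC offset (adjusted p = 0.92) and lost its call without RBM47-OE replicate 3 (0.21, adjusted p = 0.096). Calls of the smaller changes were lost with any 1 of several libraries left out. POLR1D lost its call in 5 of the 6 such fits, at log2 fold changes of -0.16 to -0.23. POLR1E and POLR1H each lost theirs in 4. With either NC replicate 2 or RBM47-OE replicate 2 left out, 2 of the 6 lower calls were made, and 3 without NC replicate 1. POLR1A and POLR1G were called lower with any 1 library left out.

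Polymerase II subunits moved apart at the catalytic core: the largest subunit fell and the second largest rose. POLR2A, which carries the repeat-rich C-terminal domain that is phosphorylated during transcription (chromosome 17, plus strand, 7484366 to 7514616), stood at 46.4, 49.1 and 47.8 FPKM in NC and at 39.4, 41.5 and 36.2 FPKM in RBM47-OE. All RBM47-OE values were below all NC values, with a log2 fold change of -0.36 (SE 0.071, adjusted p = 0.00044) and -0.19 with the GC offset (adjusted p = 0.024). POLR2B, which completes the active site (chromosome 4, plus strand, 56977722 to 57031158), stood at 23.1, 21.7 and 22.5 FPKM in NC and at 26.2, 31.4 and 33.5 FPKM in RBM47-OE. All RBM47-OE values were above all NC values, and the log2 fold change was 0.36 (SE 0.077, adjusted p = 0.00084). With the offset its value was 0.12 (adjusted p = 0.15). The exons of POLR2A have a GC content of 55.1% and those of POLR2B of 41.7%.

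Of the 5 small subunits particular to polymerase II, 4 were lower and none was higher. Of all genes tested, 16.9% were lower and 19.1% higher. POLR2C, which pairs with POLR2J in assembly, fell by 0.26 on the log2 scale, the stalk subunits POLR2D and POLR2G by 0.22 and 0.31, and POLR2I, which contributes to fidelity, by 0.41. POLR2J had a log2 fold change of -0.16 (adjusted p = 0.12). POLR2I shares 19.1% of its exonic bases with TBCB on the opposite strand, which had a log2 fold change of -0.20 (adjusted p = 0.039). With the GC offset, POLR2D and POLR2G were still called, while POLR2I missed the threshold (-0.19, adjusted p = 0.052) and so did POLR2C (-0.16, adjusted p = 0.068).

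Of the 5 subunits common to all nuclear polymerases, 4 were lower as well, where 16.9% of all genes tested were. POLR2L, a zinc-binding subunit on the minus strand of chromosome 11 (837356 to 842529), was the most abundant of all 84 members. It stood at 120.1, 129 and 125 FPKM in NC and at 94.1, 76.8 and 82.5 FPKM in RBM47-OE. Every RBM47-OE value was lower than every NC value, with a log2 fold change of -0.63 (SE 0.080, adjusted p = 1.5e-05), or -0.42 with the GC offset. CD151, on the opposite strand, covers 22.8% of the exonic bases of POLR2L and had a log2 fold change of -0.43 (adjusted p = 0.00018). POLR2E, which contacts downstream DNA, fell from 47.8 ± 0.852 to 36.9 ± 2.58 FPKM (SD, n = 3 each), a log2 fold change of -0.44 (SE 0.073, adjusted p = 0.00010) and of -0.22 with the offset. POLR2F and POLR2H fell by 0.23 and 0.20 on the log2 scale and were not called with the offset (-0.06 and -0.03). POLR2K had a log2 fold change of 0.16 (adjusted p = 0.17) in the fit without an offset and of -0.25 (adjusted p = 0.027) with it.

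POLR2M, the polymerase II associated protein also known as Gdown1, which competes with TFIIF for the enzyme, was the member with the largest increase. On the plus strand of chromosome 15 (57706695 to 57782762), it stood at 2.60, 2.37 and 2.60 FPKM in NC and at 3.58, 5.2 and 3.82 FPKM in RBM47-OE. All RBM47-OE values exceeded all NC values, with a log2 fold change of 0.66 (SE 0.11, adjusted p = 8.9e-05) and of 0.41 with the GC offset (adjusted p = 0.0062). GCOM1, which shares 20.3% of the exonic bases of POLR2M on the same strand, had a log2 fold change of 0.45 (adjusted p = 0.00050), and reads of the pair cannot be assigned to either from the table. POLR2J3, the least abundant polymerase member and a near-identical copy of POLR2J, lay between 0.42 and 0.62 FPKM in all libraries, so its counts and those of POLR2J are uncertain. The count of polymerase II members called lower was 5 without NC replicate 2. POLR2A, POLR2E, POLR2G, POLR2I and POLR2L were called lower with any 1 library left out.

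**Figure D2:**
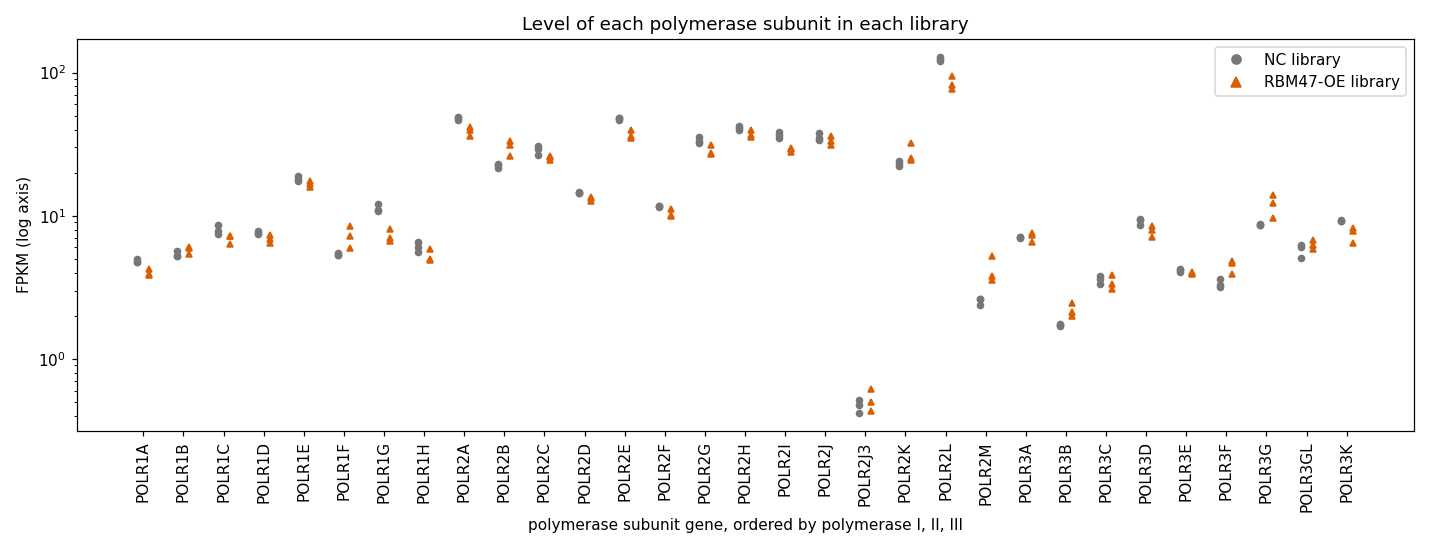
FPKM of the polymerase members reported, on a log axis, 1 point per library, with NC and RBM47-OE in separate colours. POLR2L has the highest level (125 FPKM on average in NC, 84.4 in RBM47-OE), POLR2J3 the lowest, and the groups part for POLR1G, POLR2A, POLR2B and POLR2M.

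Polymerase III had calls in both directions and none in its catalytic core. POLR3A, the largest subunit, stood at 7.08 ± 0.0781 FPKM in NC and 7.16 ± 0.542 FPKM in RBM47-OE (SD, n = 3 each), with a log2 fold change of -0.06 (adjusted p = 0.58). POLR3B had a log2 fold change of 0.26 (SE 0.12, adjusted p = 0.077), from 1.73 to 2.18 FPKM. Among the initiation subunits, POLR3G, which forms a trimer with POLR3C and POLR3F, stood at 8.77, 8.66 and 8.67 FPKM in NC and at 9.58, 12.2 and 13.9 FPKM in RBM47-OE. POLR3G rose without overlap between the groups, by a log2 fold change of 0.38 (SE 0.095, adjusted p = 0.0031), which was 0.00 with the GC offset (adjusted p = 0.99). Its paralog POLR3GL, which takes the same place in the enzyme, had a log2 fold change of 0.05 (adjusted p = 0.78), and its groups overlapped. POLR3F rose by 0.34 (adjusted p = 0.022), a call not made with the offset or without NC replicate 1, NC replicate 2, RBM47-OE replicate 2 or RBM47-OE replicate 3. POLR3C and POLR3E had log2 fold changes of -0.15 and -0.14 (adjusted p = 0.27 and 0.18), and the offset gave -0.34 (adjusted p = 0.010) for POLR3C.

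POLR3K and POLR3D were among the 3 polymerase III members that fell. POLR3K, the small subunit needed for RNA cleavage and termination, stood at 9.22, 9.11 and 9.38 FPKM in NC and at 8.25, 6.46 and 7.76 FPKM in RBM47-OE. POLR3K values did not overlap between groups, and the log2 fold change was -0.37 (SE 0.11, adjusted p = 0.0084), -0.44 with the GC offset and -0.26 without RBM47-OE replicate 2, where the call was lost (adjusted p = 0.071). POLR3D, part of a TFIIF-like dimer with POLR3E, fell by 0.29 on the log2 scale (adjusted p = 0.0057), and the offset gave -0.22 (adjusted p = 0.024).

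Mediator subunits were called in both directions. In the tail, which meets activators, all 5 subunits were called, 4 lower and 1 higher. Of all genes tested, 35.9% were called, 16.9% lower and 19.1% higher. MED16 (chromosome 19, minus strand, 867630 to 893218) stood at 18.2, 19.9 and 19.0 FPKM in NC and at 16.1, 14.6 and 14.7 FPKM in RBM47-OE. All RBM47-OE values lay below NC, with a log2 fold change of -0.40 (SE 0.074, adjusted p = 0.00026) and of -0.17 with the GC offset (adjusted p = 0.035). MED24, MED15 and MED25 fell by 0.25, 0.23 and 0.23 on the log2 scale, and with the offset they were at -0.05, -0.03 and -0.05, none of them called. MED23, which receives signals through ELK1, rose instead: 2.28, 2.23 and 2.18 FPKM in NC became 2.59, 3.32 and 3.28 FPKM. NC and RBM47-OE values of MED23 were apart, and the log2 fold change of 0.38 (SE 0.098, adjusted p = 0.0037) was 0.06 with the offset. The exons of MED23 have a GC content of 39.0%, and those of the tail subunits that fell range upwards from 56.2%.

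In the middle module, 4 of 9 subunits rose and 1 fell, where 19.1% of all genes tested rose and 16.9% fell. MED21, which forms a hinge with MED7 (chromosome 12, plus strand, 27022546 to 27066343), stood at 4.63, 5.06 and 4.78 FPKM in NC and at 5.81, 7.26 and 7.36 FPKM in RBM47-OE. Its groups did not overlap, with a log2 fold change of 0.42 (SE 0.096, adjusted p = 0.0016), or 0.10 with the GC offset (adjusted p = 0.41). MED7, MED4 and MED1, the last of which binds nuclear receptors, rose by 0.34, 0.22 and 0.20, with adjusted p of 0.044, 0.046 and 0.045. None of the 3 was called with the offset. MED9, MED10, MED19 and MED31 had log2 fold changes between -0.21 and 0.02, and MED10 was called lower with the offset (-0.30, adjusted p = 0.0435). MED26, which exchanges with the kinase module and recruits elongation factors, fell by 0.50 on the log2 scale (SE 0.13, adjusted p = 0.0053), from 1.52 ± 0.177 to 1.12 ± 0.110 FPKM (SD, n = 3 each). It lost its call with the offset (-0.28, adjusted p = 0.14) and without NC replicate 1 (-0.39, adjusted p = 0.051), and readthrough genes on the same strand cover 27.2% and 13.2% of its exonic bases.

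In the head module, which binds polymerase II, MED18 was the only one of 7 subunits called without the GC offset. In that fit 35.9% of all genes tested were called. MED18 was called in every fit. MED18 lies on the plus strand of chromosome 1 (28329002 to 28335965), and its window with CCGGAAG is printed above. It stood at 22.9, 22.7 and 22.7 FPKM in NC and at 19.6, 18.6 and 20.5 FPKM in RBM47-OE, the most abundant Mediator subunit. All RBM47-OE values were below the narrow NC range, with a log2 fold change of -0.29 (SE 0.077, adjusted p = 0.0046) and of -0.25 with the offset (adjusted p = 0.0080). The other head subunits, MED6, MED8, MED11, MED17, MED20 and MED22, had log2 fold changes between -0.17 and 0.15, and MED17 was called lower with the offset (-0.44, adjusted p = 0.042). MED17 was listed at 0.24 to 0.32 FPKM with a mean count of 158, while a same-strand gene of the annotation, ENSG00000284057, which covers 13% of its exonic bases, had a mean count of 919. Its low level in the table is therefore uncertain. Of the 4 subunits at the boundary of head and tail, MED27 fell by 0.25 on the log2 scale (adjusted p = 0.020), and MED28, MED29 and MED30 had log2 fold changes of -0.08, -0.20 and -0.02. With the offset, MED27, MED28 and MED30 were called lower at -0.33, -0.23 and -0.33. MED14, the scaffold that joins the modules, stood at 6.10 ± 0.0907 and 7.03 ± 0.236 FPKM (SD, n = 3 each), without overlap. Its log2 fold change was 0.13 (adjusted p = 0.15), and -0.15 with the offset. Mediator counts varied with the library omitted. With any 1 of NC replicates 1, 2 and 3 or RBM47-OE replicate 2 left out, 3 members were called higher. Without RBM47-OE replicate 1, 9 were called higher. Those called lower numbered 3 without NC replicate 2, and 4 without NC replicate 3 or RBM47-OE replicate 2.

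The kinase module docks on Mediator through MED13 or MED13L and holds CDK8 or CDK19 with cyclin C and MED12. MED13 (chromosome 17, minus strand, 61942605 to 62065278) stood at 7.52, 7.70 and 7.83 FPKM in NC and at 8.95, 11.8 and 9.77 FPKM in RBM47-OE. NC values were all lower, and its log2 fold change was 0.33 (SE 0.078, adjusted p = 0.0019), or 0.00 with the GC offset (adjusted p = 0.98). MED13L had a log2 fold change of 0.17 (adjusted p = 0.071), with its groups apart, and MED12 of -0.14 (adjusted p = 0.25). MED12L stood under 1 FPKM in both groups, at 0.387 and 0.393 FPKM on average. The kinases and the cyclin, which are not members by name, all rose, where 19.1% of all genes tested did. CDK8 stood at 6.22, 6.38 and 6.78 FPKM in NC and at 8.76, 10.4 and 9.14 FPKM in RBM47-OE, with a log2 fold change of 0.47 (SE 0.086, adjusted p = 0.00022) and of 0.28 with the offset (adjusted p = 0.0099). CDK19 had a log2 fold change of 0.47 (adjusted p = 0.00040) and of 0.27 with the offset (adjusted p = 0.019). CCNC rose by 0.38 (adjusted p = 0.00089) and was at 0.00 with the offset (adjusted p = 0.98).

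**Figure D3:**
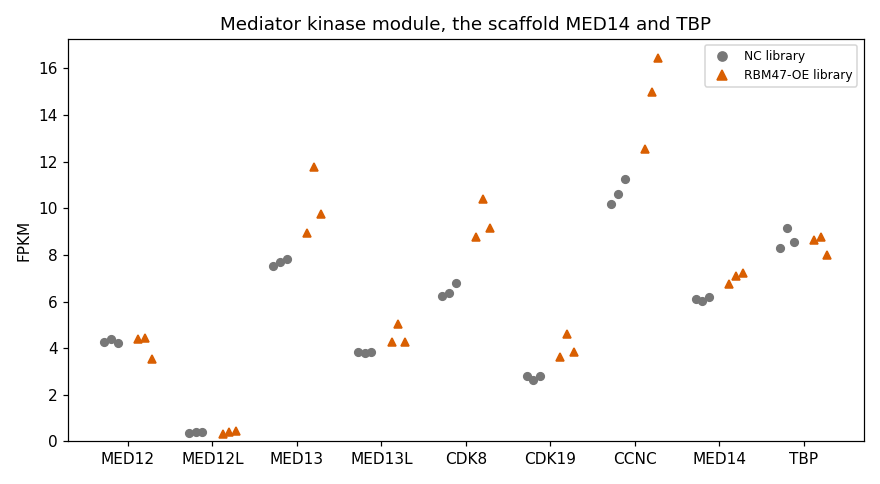
FPKM of the kinase module genes, the scaffold MED14 and TBP, with 1 point per library (circles NC, triangles RBM47-OE). CDK8, CDK19, CCNC, MED13, MED13L and MED14 have all RBM47-OE points above all NC points, and the MED12 groups overlap (means 4.31 and 4.12 FPKM).

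TAFs of TFIID were called in both directions. TAF13, a histone-fold subunit that pairs with TAF11, stood at 18.8, 17.1 and 17.4 FPKM in NC and at 18.9, 24.6 and 29.9 FPKM in RBM47-OE. RBM47-OE replicate 1 was level with the highest NC library, and the log2 fold change of 0.39 (SE 0.11, adjusted p = 0.0075) was 0.21 without RBM47-OE replicate 3 (adjusted p = 0.10) and 0.17 with the GC offset (adjusted p = 0.23). TAF2, which reads the DNA around the start site, stood at 7, 7.74 and 7.38 FPKM in NC and at 8.57, 10.5 and 10.4 FPKM in RBM47-OE, without overlap. Its log2 fold change was 0.34 (SE 0.079, adjusted p = 0.0017), and -0.01 with the offset. TAF7, a partner of TAF1, rose by 0.24 (adjusted p = 0.019), a call lost with the offset (0.02, adjusted p = 0.87) and without NC replicate 2, NC replicate 3 or RBM47-OE replicate 2 (adjusted p = 0.11, 0.079 and 0.11). TAF1, the largest TAF, had a log2 fold change of 0.18 (adjusted p = 0.071). TAF6, a histone-fold subunit that pairs with TAF9, fell by 0.29 on the log2 scale (adjusted p = 0.0067), a call lost with the offset and without NC replicate 2 (adjusted p = 0.094). TAF3, TAF4, TAF5, TAF8 and TAF11 had log2 fold changes between -0.16 and 0.16 and were not called.

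TAF10, a histone-fold subunit of both TFIID and SAGA, was the TAF called in every fit. On the minus strand of chromosome 11 (6606294 to 6612539), it stood at 11.7, 13.7 and 12.3 FPKM in NC and at 11.2, 9.59 and 10.1 FPKM in RBM47-OE. The groups did not overlap, and the log2 fold change was -0.36 (SE 0.081, adjusted p = 0.0013), or -0.24 with the GC offset (adjusted p = 0.017). ILK, on the opposite strand, covers 40.8% of its exonic bases and had a log2 fold change of -0.34 (adjusted p = 0.00099). TAF9 and TAF12, shared with SAGA too, had log2 fold changes of 0.10 and 0.01 (adjusted p = 0.37 and 0.92). TAF6L, found in SAGA, fell by 0.33 on the log2 scale (adjusted p = 0.0078) and was at -0.12 with the offset, while TAF5L was at 0.01. The paralogs TAF4B and TAF9B had log2 fold changes of 0.25 and 0.12 (adjusted p = 0.088 and 0.56), and their groups overlapped.

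In SL1, which brings polymerase I to the ribosomal RNA promoter, TAF1B and TAF1D rose. TAF1B, a TFIIB-like subunit, stood at 3.85, 3.91 and 3.90 FPKM in NC and at 4.68, 5.38 and 5.52 FPKM in RBM47-OE. TAF1B values did not overlap, with a log2 fold change of 0.35 (SE 0.095, adjusted p = 0.0059), or 0.06 with the GC offset. TAF1D rose by 0.27 (adjusted p = 0.0048), and the offset gave -0.10. TAF1A and TAF1C had log2 fold changes of 0.17 and -0.20 (adjusted p = 0.38 and 0.060). TAF15, an RNA-binding protein of the FET family and the most abundant TAF at 47.5 ± 0.511 FPKM in NC and 52.4 ± 1.61 FPKM in RBM47-OE (SD, n = 3 each), had a log2 fold change of 0.07 (adjusted p = 0.46). TBP itself was at 8.67 ± 0.433 and 8.46 ± 0.419 FPKM (SD, n = 3 each), with a log2 fold change of -0.11 (adjusted p = 0.39).

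Log2 fold changes of members decreased with the GC content of their exons. The median exonic GC content was 39.8% for members called higher, 54.8% for members called lower and 45.9% for all members. Across the 84 members, Spearman's rho between exonic GC content and log2 fold change was -0.78. It was -0.70 across protein-coding genes tested and -0.63 across all genes tested. The genes share the 6 libraries and are not independent, so no p-value belongs to it. With genes split into deciles by GC content, the lowest 3 deciles held 31 members, of which 14 rose and none fell. Of all genes tested, 36.8% to 64.96% rose in each of these deciles and at most 2.40% fell, so the members' share that rose lay within that range. The upper 5 deciles held 33 members, of which none rose and 22 fell. There, 18.2% to 37.4% of all genes tested fell in each decile and at most 3.08% rose, so the members' share that fell was above that range. The deciles include noncoding genes, whereas all members are protein-coding. Shares of protein-coding genes alone were not computed by decile. With the GC offset rho was -0.02. Of the 28 members that fell, 28 had a log2 fold change below 0 with the offset as well, and of the 16 that rose, 12 stayed above 0. The offset removes whatever follows GC content, and its origin was not tested.

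**Figure D4:**
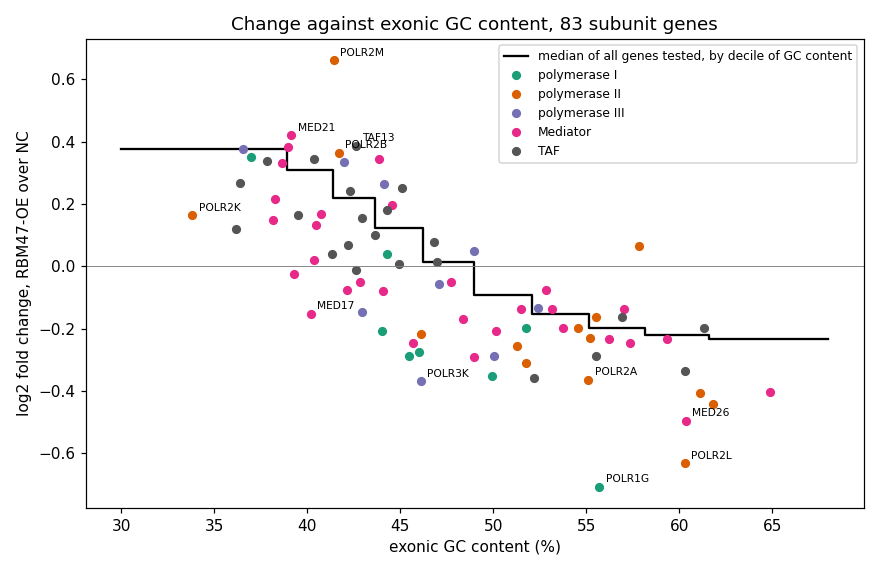
Log2 fold change against exonic GC content in percent for 83 of the 84 members, coloured by family, with a line for the median of all genes tested in each decile of GC content. In the lowest 3 deciles 14 of 31 members rose and none fell, where 36.8% to 64.96% of all genes tested rose in each decile. POLR1G, POLR3K and MED17 lie farthest from the line.

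Ratios between subunits of the same complex, chosen after their values were seen, were computed within each library. The FPKM of POLR2A over that of POLR2B was 2.01, 2.26 and 2.13 in NC and 1.50, 1.32 and 1.08 in RBM47-OE. These groups could not overlap, because every RBM47-OE value was below NC for POLR2A and above NC for POLR2B. The separation of this ratio therefore adds nothing to the values of the 2 genes. Its exact two-sided permutation p of 0.1 is the smallest that 3 against 3 libraries can give. POLR1A over POLR1B was 0.912, 0.875 and 0.919 in NC and 0.712, 0.694 and 0.652 in RBM47-OE, also without overlap. POLR2L over POLR2K ranged from 5.19 to 5.63 in NC and from 2.57 to 3.87 in RBM47-OE, and POLR3A over POLR3B from 4.04 to 4.22 and from 3.00 to 3.57. MED13 over MED12 was 1.75 to 1.85 in NC and 2.04 to 2.78 in RBM47-OE. For these 4 ratios the exact permutation p was 0.1 too. The difference in log2 fold change between the genes of a pair was smaller with the GC offset: -0.31 in place of -0.73 for POLR2A and POLR2B, -0.18 in place of -0.39 for POLR1A and POLR1B, and -0.17 in place of -0.80 for POLR2L and POLR2K. It was -0.20 in place of -0.32 for POLR3A and POLR3B, and 0.03 in place of 0.47 for MED13 and MED12. For POLR3G over POLR3GL, TAF9 over TAF9B, TAF4 over TAF4B and CDK8 over CDK19 the groups overlapped, with exact permutation p of 0.3, 0.9, 0.2 and 0.8. MED13 over MED13L was 1.96 to 2.04 in NC and 2.11 to 2.34 in RBM47-OE, without overlap (exact permutation p = 0.1). The difference in log2 fold change of that pair was 0.16, and 0.11 with the offset.

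**Figure D5:**
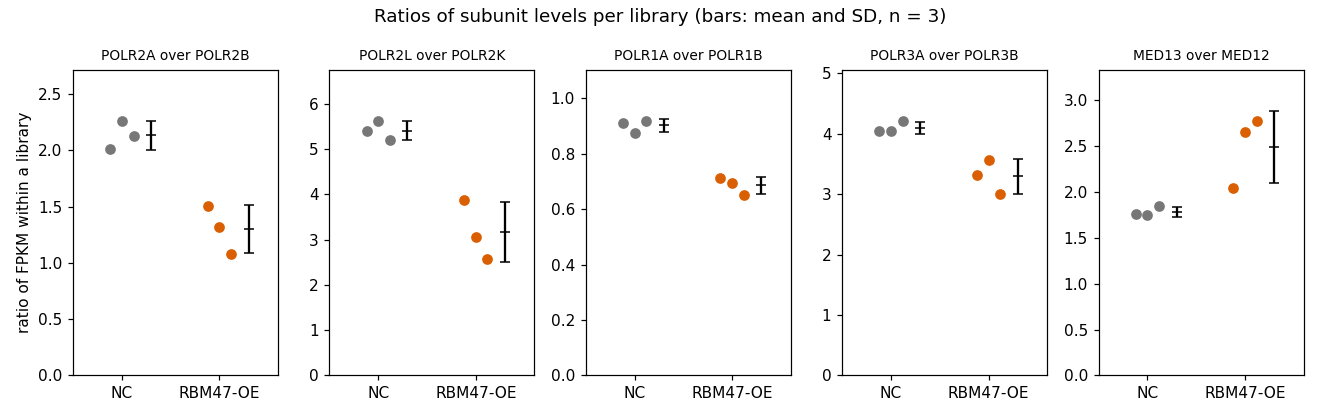
Ratio of FPKM between subunits of 1 complex in each library, for 5 pairs, with the mean and SD of each group (n = 3). POLR2A over POLR2B ranges from 2.01 to 2.26 in NC and from 1.08 to 1.50 in RBM47-OE, and MED13 over MED12 is the plotted pair with higher values in RBM47-OE.

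Genes that work with these complexes changed in both directions as well. Of 83 partner genes tested, 28 were higher and 28 lower, where 19.1% and 16.9% of all genes tested were, with a median log2 fold change of 0.07, and with the GC offset 5 were higher and 11 lower, where 6.1% and 8.54% of all genes tested were. All 18 pausing and elongation factors were called, where 35.9% of all genes tested were. The PAF complex members CTR9, CDC73, LEO1 and RTF1 rose by 0.50, 0.46, 0.43 and 0.24, as did TCEA1, which restarts stalled polymerase, by 0.44. PAF1 of the same complex fell by 0.19 on the log2 scale. The pausing factors NELFA, NELFB, NELFCD and NELFE fell by 0.31, 0.31, 0.33 and 0.24 and SUPT5H by 0.40 on the log2 scale. Under the GC offset, CTR9 was called higher (0.25), and NELFCD (-0.32) and SUPT5H (-0.21) lower, the 3 of 18 that were called. Of 19 general factors of polymerase II, 7 were higher and 3 lower, among them MNAT1 and CDK7 of the TFIIH kinase, which rose by 0.49 and 0.32, and none was called higher with the offset. Of 16 polymerase III factors, 5 were higher and 8 lower. GTF3C3 rose by 0.48 and GTF3C5 fell by 0.49 on the log2 scale, both of them subunits of TFIIIC, and SNAPC4, which binds snRNA promoters, fell by 0.61. The offset left GTF3C5 (-0.28) and SNAPC4 (-0.39) called, and GTF3A, the factor for small ribosomal RNA genes, rose in both fits (0.29 and 0.33). The partner genes called lower numbered 17 without NC replicate 1 and 17 without NC replicate 2. The polymerase I factors RRN3 and TTF1 rose by 0.29 and 0.35, and UBTF, which bends ribosomal DNA, fell by 0.38 on the log2 scale, none of them called with the offset.

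Over both fits and all alternatives tried, 9 members kept a call in 1 direction. POLR2M was higher, and POLR1A, POLR1G, POLR2A, POLR2E, POLR2G, POLR2L, MED18 and TAF10 were lower. The share of all genes tested that kept a call in this way was not computed. Whether 9 members are many or few is therefore not known. With 1 library or another left out, 22 of the 44 calls were lost at least once, and those of POLR1D, POLR2H, MED1, MED4 and MED7 in 5 of the 6 fits. In FPKM, the RBM47-OE values of each of the 9 members lay outside the NC range. By scaled counts, every RBM47-OE library was above the NC range in 20 members and below it in 29. Of all genes tested, 46.5% did not overlap, 23.2% above and 23.4% below. Of the 13295 protein-coding genes tested, 3521 were above and 3449 below. For the remaining 35 members the libraries of the groups overlapped.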

How the data were processed

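Poly(A) RNA of HCT116 cells was sequenced in 3 NC and 3 RBM47-OE libraries, grouped by their titles. The authors used FASTX-Toolkit 0.0.13 for trimming and HISAT2 for alignment to GRCh38. The deposited counts are uniquely mapped reads per gene, with no normalization. In the deposited FPKM values the authors divided by gene length and library total. Counting tool, annotation release and strand setting are not given in the sources used here. The labels name a NEBNext directional kit and the methods a KC stranded kit. All count and FPKM columns were used.

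Counts were tested with edgeR 4.0.16 in R 4.3.3 (filterByExpr with a minimum count of 10 and a minimum total of 15, TMM, quasi-likelihood test, condition as the only term) and p-values were adjusted over 16260 genes. Standard errors are the absolute log2 fold change over the square root of F. TMM put RBM47-OE log2 fold changes 0.06 below those by library totals, so a ratio of FPKM exceeds the fitted fold. Exonic GC content, overlaps and coordinates came from GENCODE 44 and GRCh38 and were found for all 84 members. The gene length implied by counts and FPKM was about 1.13 times the GENCODE 44 exonic length for most members. It was 0.31 times for TAF12, 0.33 for TAF11, 0.44 for POLR3C and 0.64 for POLR3A. For such members the exons counted may differ from those used for GC content and overlaps. The GC offset was a loess curve (span 0.3) per library. Alternatives were DESeq2 1.42.0, limma 3.58.1 on log2(FPKM + 0.1) where the mean FPKM reached 0.1, other scalings (RLE factors or library totals), other filters (none, or 10 counts per library), a replicate block with or without the GC offset, and fits that omitted 1 library each. The fits were tested on simulated counts.

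Members and gene lists were chosen with earlier results of these data known, so their directions are not independent support. Named genes were, per family, the 4 lowest adjusted p-values in each direction, catalytic and scaffold subunits, the kinase module with CDK8, CDK19 and CCNC, paralog pairs, the most and least abundant members, and TBP. For 1 member the values are not reported here, though it is included in the counts. All others named were chosen after their values were seen, and ratios likewise.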

Additional observations from a re-analysis of the deposited data

How the results depend on the processing

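DESeq2, RLE factors, no filter and at least 10 counts per library left the counts of members called within 1.5 times. With library totals as scaling, 3 polymerase I members, 4 Mediator members and 18 partner genes were lower, and 5 members turned, among the named genes POLR3A (0.0072). With limma on log2(FPKM + 0.1), 14 members were lower, with 2 of polymerase I, 5 of polymerase II and 3 of Mediator, as were 16 partner genes, and 5 members turned, among the named genes POLR3A (0.0140).

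With the GC offset, 1 member was higher, which was 1 in polymerase II and 0 in polymerase I, polymerase III, Mediator and the TAFs, 1 TAF was lower, 5 partner genes were higher and 11 lower, and the rank correlation with GC content was -0.0193. The sign turned in 24 of the 84 members, among the 51 named genes in POLR1F (-0.02), TAF2 (-0.0066), TAF1D (-0.10), TAF15 (-0.15), TAF4 (0.0276), POLR1B (-0.10), MED14 (-0.15), MED13L (-0.10), TAF9 (-0.0692) and TAF9B (-0.26). Of those 51, 17 kept their direction and lost their call.

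Replicate numbers are shared by the groups, and the sample titles do not say whether same-numbered libraries were paired. Deviations of same-numbered libraries from their group means correlated at -0.06, -0.01 and -0.02. With 3 libraries per group these values constrain each other, so they cannot decide whether libraries were paired. The replicate block left 3 Mediator members higher and moved no other count of calls by over 1.5 times. The GC offset with the block gave 1 member higher (polymerase II, 0 elsewhere), 1 TAF lower, 5 partner genes higher and 12 lower and a rank correlation of -0.016, and turned 25 of the 84 members, among the named genes POLR1F (-0.0188), POLR3G (-0.000578), TAF2 (-0.00442), TAF1D (-0.10), TAF15 (-0.15), TAF4 (0.0273), POLR1B (-0.10), MED14 (-0.15), MED13L (-0.11), TAF9 (-0.0691) and TAF9B (-0.27).

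Leaving out 1 library at a time, between 11 and 23 members were higher and between 15 and 31 lower. Higher and lower counts ran from 0 to 1 and 2 to 6 for polymerase I, 2 to 3 and 5 to 10 for polymerase II, 1 to 3 and 2 to 3 for polymerase III, 3 to 9 and 3 to 7 for Mediator, 4 to 7 and 2 to 5 for the TAFs and 19 to 32 and 17 to 29 for partner genes. The rank correlation with GC content ran from -0.80 to -0.72 and the RBM47 log2 fold change from 5.85 to 6.0. Signs turned in 11 of the 84 members without 1 library or another, among the named genes in POLR3GL (range -0.0331 to 0.12, below 0 without NC 1 or RBM47-OE 1), POLR2J3 (-0.10 to 0.19, below 0 without NC 3 or RBM47-OE 1) and TAF9B (-0.11 to 0.25, below 0 without RBM47-OE 3). Where values moved, the cause was not tested. Members at low counts, such as POLR2J3 with 55 on average (SE 0.24), allow no small change to be seen.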

Other observations

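Some of the 83 partner genes counted in the report were not described there. Of 15 genes of SAGA and the related ATAC complex, 4 fell and none rose by edgeR's quasi-likelihood test, where 35.9% of all genes tested were called and 16.9% were lower: KAT2A, the acetyltransferase, by 0.37, TADA3 by 0.27, the deubiquitinase USP22 by 0.21 and its partner ATXN7L3 by 0.20 on the log2 scale. With the GC offset none of these 4 was called, while ENY2 (-0.31), TADA2A (-0.35) and SUPT20H (-0.26) were called lower. POLRMT, the mitochondrial RNA polymerase, stood at 33.7 ± 1.19 FPKM in NC and 27.7 ± 2.01 FPKM in RBM47-OE (SD, n = 3 each) and fell by 0.35 on the log2 scale (adjusted p = 0.00082), with -0.11 under the offset (adjusted p = 0.16). TFAM, which packages and transcribes mitochondrial DNA with it, rose by 0.31 (adjusted p = 0.012), with -0.07 under the offset (adjusted p = 0.57). Among assembly factors, GPN3, a GTPase that brings polymerase II into the nucleus, rose in both fits by 0.33, and RPAP1, an assembly factor of polymerase II, fell by 0.42 on the log2 scale, with -0.23 under the offset (adjusted p = 0.019). RPAP3, of the R2TP co-chaperone, rose by 0.43 and was at 0.04 under the offset.

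Noncoding entries with matching symbols were counted in the same libraries. POLR2J4, listed as a long noncoding RNA, had 100, 152 and 135 counts in NC and 114, 115 and 109 counts in RBM47-OE. Another POLR2J4 entry, listed as a pseudogene, had 20, 31 and 34 counts in NC and 16, 21 and 17 counts in RBM47-OE. Counts of both entries are unscaled for library size, so they do not show whether the groups overlap. The antisense RNA TAF1A-AS1 had 20, 30 and 31 counts in NC and 41, 35 and 49 counts in RBM47-OE, unscaled for library size.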
